A study of Homo sapiens with 11 samples.

Results

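The cytosolic ribosomal protein genes were followed in Caki-1-SR clone 1, a sunitinib-resistant subline of Caki-1, which is a human clear cell renal cell carcinoma line taken from a skin metastasis. Members were all rows of the count tables whose symbol is RPL or RPS with a number and at most 1 further letter A or X, together with RPLP0, RPLP1, RPLP2 and RPSA. This gave 77 genes of 26485, of which 46 encode proteins of the large ribosomal subunit and 31 proteins of the small subunit. All 77 passed the filter on low counts at each time. The question was whether the mRNAs of the translation machinery differ between cells given the 4-drug combination, here ODC, and control cells (CTRL).

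All cells were from 1 clone and all, CTRL included, were a line maintained in 1 µM sunitinib, an inhibitor of receptor tyrosine kinases. ODC cells received 2 µM Rapta-C, an experimental ruthenium compound, with 1 µM erlotinib, an inhibitor of the EGF receptor kinase, 1 µM metformin, a biguanide used in diabetes, and 5 µM parthenolide, a plant sesquiterpene lactone. The study's text describes CTRL cells both as untreated and as sham-treated. At 24 h there were 3 CTRL libraries (numbered 1, 3 and 5) and 3 ODC libraries (2, 4 and 6), and at 2 h there were 2 CTRL libraries (1 and 2) and 3 ODC libraries (3, 4 and 5). The library names carry 1 month for the 2 h libraries and another for those of 24 h, and this month and the time cannot be told apart. Nothing says that the libraries came from separate cultures, so p-values measure only the spread between these libraries, which may be technical.

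Each ribosome holds 1 copy of nearly every one of these proteins, and their mRNAs are among the most abundant in growing cells. Most of them begin with a C followed by a run of pyrimidines, the 5′ terminal oligopyrimidine (TOP) motif, through which mTOR signalling and the binding protein LARP1 adjust their translation and stability together. Several of the proteins have further roles when not in a ribosome, and loss of 1 gene copy of some of them is a known cause of Diamond-Blackfan anaemia.

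The start of the mRNA is shown for genes on which the results below turn. RefSeq (GRCh38.p14) lists a start for 62 of the 77 members. A C at any listed start followed by at least 4 further pyrimidines was found in 46 of those 62 genes (74.2%), against 4.98% of the 27243 other genes with a listed start. Counted per start, the shares were 59.7% and 3.95%. The lines below run 5′ to 3′ from 40 bases before the start to 20 bases from it, with the TOP run in capitals. Where a gene has several listed starts, the start with the longest run is shown. RPS3 and RPL13A had the smallest p among members at 24 h, RPL24, RPS16 and RPS6 had low fold changes at 2 h, and RPL13 had a higher value in ODC at both times. RPL22L1 and RPS27L are relatives outside the naming rule, of which RPS27L has no such run at its listed start.
RPS3 (chr11:75399478-75399537, plus strand): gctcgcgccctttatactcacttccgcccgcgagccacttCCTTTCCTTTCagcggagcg
RPL13A (chr19:49487568-49487627, plus strand): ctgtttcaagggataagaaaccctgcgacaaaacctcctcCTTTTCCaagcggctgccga
RPL24 (chr3:101686699-101686758, minus strand): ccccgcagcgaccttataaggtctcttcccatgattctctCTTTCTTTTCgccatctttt
RPS16 (chr19:39435930-39435989, minus strand): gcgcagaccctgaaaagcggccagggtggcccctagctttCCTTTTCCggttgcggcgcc
RPS6 (chr9:19380217-19380276, minus strand): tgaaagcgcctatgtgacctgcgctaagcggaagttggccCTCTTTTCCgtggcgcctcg
RPL13 (chr16:89560642-89560701, plus strand; 1 of 3 listed starts): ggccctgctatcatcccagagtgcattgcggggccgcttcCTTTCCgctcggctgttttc
RPL22L1 (chr3:170870176-170870235, minus strand): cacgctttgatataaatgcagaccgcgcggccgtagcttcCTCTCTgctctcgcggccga
RPS27L (chr15:63157458-63157517, minus strand): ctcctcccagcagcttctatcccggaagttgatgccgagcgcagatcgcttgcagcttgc

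The run in members was 5 to 19 bases long, with a median of 8. RPL27, RPL3, RPL4 and RPL32 were among the 16 members with a listed start and no run exactly there, which says only that these letters are not at the listed base. Members with and without the run had like fold changes: the median log2 fold change at 24 h was -0.08 over the 46 with it and -0.08 over the 16 without, and at 2 h -0.09 and -0.10 (0.03 and 0.04 without CTRL 2 h library 1, whose marker counts are described below). The 701 other tested genes with a TOP start had a median of -0.01 at 24 h, and the 723 at 2 h a median of -0.0019. In the 300 bases around the start (250 before and 50 from it), the letters CCGGAA, the core of binding sites for ETS-family factors such as GABP, were found on either strand at 51.9% of the members' starts and at 17.2% of all other starts. TATAAA was found at 6.49% and 11.5%.

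The libraries held 17785229 to 31118349 counts. Caki-1's renal and mesenchymal genes PAX8, VIM, CDH2, MET and NNMT were at 104 CPM (for these markers, counts scaled to the library's plain total) or more in every library, whereas CA9, a hypoxia target typical of clear cell tumours, had at most 1 count and PAX2 at most 4. Of 16 kidney and carcinoma markers looked at, 9 were above 1 CPM in every library. LRP2 had at most 7 counts, CDH1 at most 21, CUBN 13 to 63 and EPCAM 5 to 100, with the 100 in CTRL 2 h library 1. Of 11 markers of other cells, COL1A1 was at 59.8 to 238 CPM throughout. The leukocyte genes PTPRC and CD3E and the endothelial genes PECAM1 and CDH5 had at most 9 counts in any library, HBB of erythroid cells at most 19 and ALB of liver at most 12. CD14, a monocyte gene, had 25 to 72 counts at 2 h and 1 to 10 at 24 h. CD14 and PTPRC had their highest counts (72 and 7) in ODC 2 h library 5, the library with the lowest ribosomal protein values at that time. CD3E had 0 counts there. In CTRL 2 h library 1, with the highest ribosomal protein values at that time, CD14 had 41 counts and PTPRC 4. CTRL 2 h library 1 stood apart. COL3A1, a fibroblast collagen, had 1081 counts there and at most 6 in any other library, COL1A2 had 971 against at most 11, the epithelial keratin KRT19 48 against at most 3, and VWF of endothelium 13 against at most 2. The summed level of the 11 markers of other cells was 321 CPM in that library, 135 in the other CTRL library and 156 to 167 in the ODC libraries at 2 h. The part of these markers in the 2 h results was not tested, and the fold changes at 2 h are given again without CTRL 2 h library 1 after the account of that time.

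Ribosomal protein genes took 4.03% to 5.57% of all counts. At 24 h the share was 5.57%, 4.76% and 4.78% in CTRL libraries 1, 3 and 5, and 5.30%, 4.62% and 4.03% in ODC libraries 2, 4 and 6. The groups overlapped, with means of 5.04% ± 0.461 (SD, n = 3) in CTRL and 4.65% ± 0.636 (n = 3) in ODC. At 2 h it was 5.05% and 4.38% in CTRL libraries 1 and 2, and 4.78%, 4.60% and 4.15% in ODC libraries 3, 4 and 5. Here too the groups overlapped, with means of 4.72% ± 0.474 (n = 2) and 4.51% ± 0.326 (n = 3). Within both groups at 24 h the spread was wider than the difference between the group means.

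**Figure D1:**
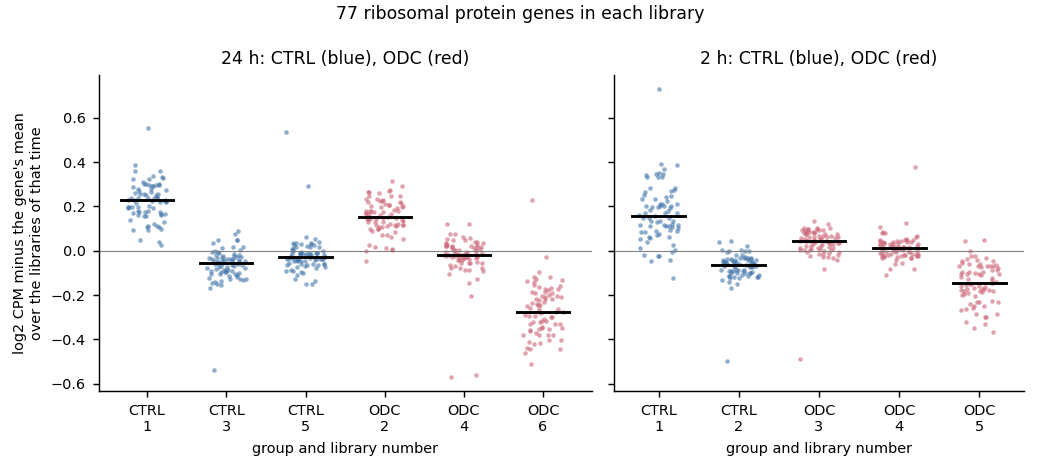
Each point is 1 of the 77 ribosomal protein genes in 1 library, as log2 CPM minus the gene's mean over the libraries of that time, and the black line is the median over the genes. At 24 h the medians lay at 0.23, -0.06 and -0.03 in CTRL libraries 1, 3 and 5 and at 0.15, -0.02 and -0.27 in ODC libraries 2, 4 and 6; at 2 h at 0.15 and -0.07 in CTRL and at 0.04, 0.01 and -0.15 in ODC.

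The genes moved together from library to library within the CTRL and within the ODC group, as the plot of the 77 genes in each library shows. CTRL 24 h library 1 held the highest value of 63 members and ODC 24 h library 6 the lowest value of 73, where 18.4% and 21.0% of all genes tested did so. At 2 h, CTRL library 1 held the highest value of 64 members and ODC library 5 the lowest of 59, against 27.7% and 23.0% of all genes. The SD of log2 CPM within groups had a median of 0.20 over members at 24 h, and of 0.06 once the family's own shift in each library was taken out (all genes tested, 0.19 before). The corresponding values at 2 h were 0.13, 0.07 and 0.15. Taking out the shift made the SD smaller for 70 of 77 members at 24 h and 66 at 2 h.

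Over the 11 libraries, a member's deviation from its group mean correlated with that of the other members with a median Pearson's r of 0.97, and 63 members were above 0.9. These are descriptive values over libraries that share depth and scaling. The members that followed the family least were RPL36A (r = 0.23), which has few counts, RPL22 (0.36), an RNA-binding protein of the large subunit that is dispensable for the ribosome itself, RPS2 (0.54), at the mRNA entry, and RPL3 (0.59), next to the peptidyl transferase centre. For 1 unit of family shift at 24 h, RPS2 moved by 0.25, RPL22 by 0.29, RPL3 by 0.41 and RPL4 by 0.43, whereas RPS20 moved by 1.66 and RPS15A by 1.74. At 2 h RPS2 moved by 0.06, RPL3 by 0.09, RPS20 by 1.68 and RPS15A by 2.09, so that these 4 genes kept their side of the family at both times. RPL36A did not, at 0.19 and 2.93.

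Of 12526 other genes, 193 followed the family with r above 0.9. The nearest were COX7A2, a subunit of cytochrome c oxidase (r = 0.99), SNRPD2, a core protein of spliceosomal particles, FAM96B, a factor of iron-sulphur protein assembly, ABRACL and POP5, a subunit of RNase P and MRP (all 0.99). These genes had short transcripts: the median length was 974 bases over the 191 with an annotated length, against 704 over the members and 3020 over all other genes. Libraries also differed in this respect as a whole. Across all genes, Spearman's rho between a gene's deviation and its transcript length was -0.18, 0.07 and 0.04 in CTRL 24 h libraries 1, 3 and 5 and -0.26, 0.03 and 0.20 in ODC 24 h libraries 2, 4 and 6. At 24 h the order of the libraries by this value thus put both high libraries lowest and the low library highest. At 2 h it was -0.14 and 0.25 in CTRL and -0.27, -0.02 and 0.17 in ODC. The part of transcript length in the members' values was not tested.

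Levels are compared between genes only per kilobase of coding sequence. CPM of members and other named genes are scaled with TMM factors. On this scale the median over members was 1262 CPM per kb at 24 h and 1189 at 2 h. RPL32, a large-subunit protein, was highest at 3578 and 3436. Next at 24 h, with the 2 h value second, came RPLP1, an acidic protein of the stalk that recruits elongation factors (2841 and 3371), RPS20 of the small-subunit head (2746 and 1916) and RPL10, which joins late in large-subunit assembly (2373 and 2049). The order differed at 2 h, where RPLP2 (2302), RPL37 (2233) and RPL41 (2110) followed RPLP1 and RPL10 came after them. Counts were taken per gene and not over coding sequence alone, so this scale favours members with a very short coding sequence. RPL41 has 75 coding bases in a transcript of 469, and its rank depends on the scale. RPL22 (368 and 325) and RPL39 (271 and 294), a very short protein at the exit tunnel, were near the bottom.

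A group of 3 members lay far below the rest: RPL36A (28.9 and 9.64 CPM per kb), RPL17 (21.8 and 19.6) and RPS10 (6.74 and 5.75). RPS10 had 40 to 98 counts per library, RPL36A 58 to 232 and RPL17 210 to 362, where RPL32 had 23522 to 45001. Each of these 3 genes overlaps a readthrough gene model in the annotation, RPL36A-HNRNPH2 on chromosome X, RPL17-C18orf32 on chromosome 18 and RPS10-NUDT3 on chromosome 6 (hg38), and these models were listed at 0 counts in all libraries. The tool used to count is known, its rule for reads that overlap 2 genes is not, so the levels of the 3 genes are uncertain. The 31 pseudogene symbols of the family in the tables summed to 1213 to 2317 counts per library, at most 0.158% of the members' counts, and reads that match several copies could be split or lost.

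At 24 h, 71 of 77 members had a lower estimate in ODC and 6 a higher one (49.9% of all genes tested were lower). The median log2 fold change was -0.08, against 0.0009 over all 12689 genes, and members ran from -0.45 (RPS10) to 0.07 (RPL13). None of the differences passed a test. No member had an edgeR adjusted p under 0.05 (0.189% of all genes did) and none had an unadjusted p under 0.05 (12.2% of all genes did), with a smallest adjusted p of 0.527. The 95% intervals of 76 members lay within a 2-fold difference and those of 73 within 1.5-fold, and the exception to the first was RPS10, which has few counts. DESeq2 also called 0 members, both before and after adjustment. Its share over all genes is not given here, so this 0 is not set against a background.

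The small lowering was not spread over the libraries. Without CTRL 24 h library 1 the median became 0.0061, with 37 members lower, and without ODC 24 h library 6 it became 0.02, with 24 lower. Without ODC 24 h library 2 it was -0.19, with 75 lower, and 2 members, RPS3 and RPS10, had an unadjusted p under 0.05 (9.51% of all genes did), with none after adjustment (0.0234% of all genes). Between neighbouring library numbers the family median differed by -0.08 (ODC 2 against CTRL 1), 0.04 (ODC 4 against CTRL 3) and -0.25 (ODC 6 against CTRL 5). In a fit with these pairs as a block, 5 members had an unadjusted p under 0.05 (23.6% of all genes did) and 0 an adjusted p under 0.05 (5.41% of all genes did). No label states this pairing. It was chosen because neighbouring libraries departed together in these same data, so the p-values of this fit are not independent of that choice.

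**Figure D2:**
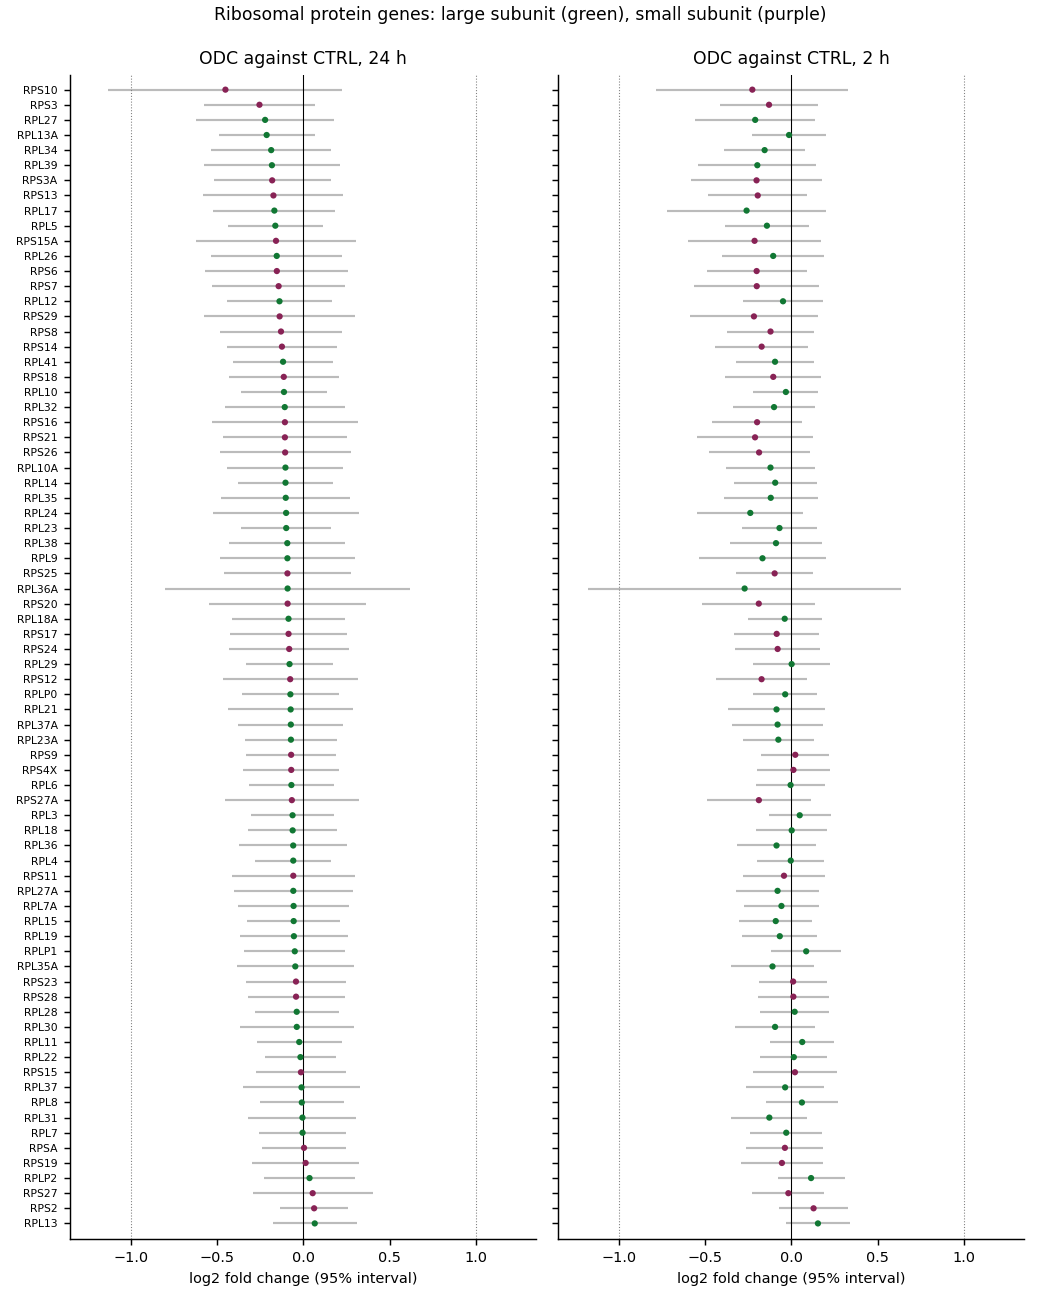
Log2 fold change of ODC against CTRL for 76 of the 77 genes at 24 h (left) and 2 h (right), with 95% intervals as grey bars, ordered by the 24 h value, and dotted lines at a 2-fold difference. Every interval shown includes 0, and those of RPS10 at 24 h and RPL36A at 2 h pass the lower dotted line.

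In the small subunit, the median at 24 h was -0.09 over 31 members, 27 of them lower. Over the 14 members of the head it was -0.09 and over the 17 of the body and platform -0.10. RPS3, a head protein at the mRNA entry that also acts in DNA repair, had the smallest p. Its level was 1971, 1707 and 1613 CPM in CTRL libraries 1, 3 and 5 and 1710, 1492 and 1235 in ODC libraries 2, 4 and 6. The groups overlapped only through ODC library 2, which lay above CTRL libraries 3 and 5. The log2 fold change was -0.25 (SE 0.14, unadjusted p = 0.108, adjusted p = 0.527), and with the pairs as a block -0.26 (SE 0.08, adjusted p = 0.0943).

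RPS10, another head protein, had the largest estimate, on 40 to 98 counts. It was at 4.71, 2.92 and 3.93 CPM in CTRL and 3.89, 2.16 and 2.40 in ODC, with a log2 fold change of -0.45 (SE 0.29, adjusted p = 0.597). The CTRL and ODC values overlapped. RPS3A, a platform protein, was at -0.18 (SE 0.15) and RPS6, the substrate of S6 kinase, at -0.15 (SE 0.18). RPS2 was at 1067, 1007 and 1007 CPM in CTRL and 1096, 1093 and 1029 in ODC, a log2 fold change of 0.06 (SE 0.09) with overlapping groups. RPSA, the laminin-receptor homologue of the platform, RPS19, the gene most often mutated in Diamond-Blackfan anaemia, and RPS27 were the other small-subunit members with an estimate above 0, at 0.0045, 0.014 and 0.055, and those of RPSA and RPS19 turned below 0 when library totals alone set the scale. RPS26 was at -0.10 and RPS27A, made as a fusion with ubiquitin, at -0.07.

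In the large subunit, the median at 24 h was -0.07 over 46 members, 44 of them lower. RPL13A was the only member whose groups did not overlap (8.51% of all genes did not overlap and were lower in ODC, and 9.42% were higher, with no member among them). This protein is known for silencing inflammatory mRNAs once released from the ribosome. It was at 1056, 916 and 896 CPM in CTRL and 890, 876 and 710 in ODC, with a log2 fold change of -0.21 (SE 0.12, adjusted p = 0.539). The gap between the groups, from 890 to 896 CPM, was smaller than the spread within each.

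RPL27, at the subunit's surface, was at 445, 335 and 336 CPM in CTRL and 382, 321 and 254 in ODC (log2 fold change -0.22, SE 0.17). RPL34 was at -0.19 (SE 0.15), and RPL41, the shortest member, at -0.12 (SE 0.13). RPL5 and RPL11 carry 5S rRNA into the ribosome and, when free, bind the p53 regulator MDM2. RPL5 was at 829, 690 and 716 CPM in CTRL and 744, 661 and 592 in ODC (-0.16, SE 0.12), and RPL11 at 797, 715 and 751 against 818, 749 and 659 (-0.02, SE 0.11). Of the stalk proteins, RPLP0, the anchor, was at -0.07 (SE 0.12), RPLP1 at -0.05 and RPLP2 at 0.04. The 4 members next to the peptidyl transferase centre had a median of -0.06, with RPL10 lowest at -0.11 (SE 0.11), and the 8 at the tunnel exit a median of -0.09. RPL13, whose estimate was highest in the family, was at 709, 677 and 627 CPM in CTRL and 740, 744 and 624 in ODC (0.07, SE 0.10). The medians of these roles, from -0.09 to -0.05, were closer together than the standard errors of their single members.

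**Figure D3:**
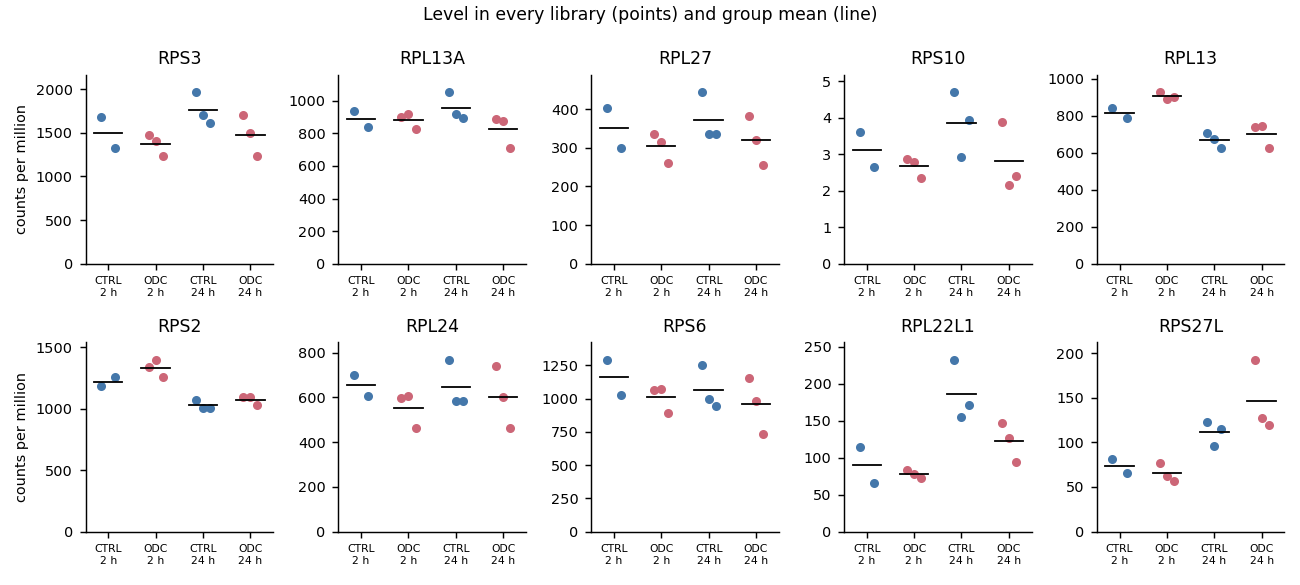
Level in CPM (axis from 0) of 8 members and of the relatives RPL22L1 and RPS27L in every library of CTRL (blue) and ODC (red) at 2 h and 24 h; lines are group means. RPS3 spans 1235 to 1971 CPM at 24 h with overlapping groups, and RPL22L1 lies between 155 and 233 CPM in CTRL and between 94.8 and 146 in ODC at 24 h.

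At 2 h, 61 of 77 members had a lower estimate in ODC and 16 a higher one (51.8% of all genes tested were lower). The median was -0.09, against -0.0060 over all 13332 genes, and members ran from -0.27 (RPL36A) to 0.15 (RPL13). As at 24 h, no member had an edgeR adjusted p under 0.05 (0% of all genes did) or an unadjusted p under 0.05 (2.34% did). DESeq2 called 0 there too, and its share over all genes is not given here. The intervals of 76 members, all but RPL36A, lay within 2-fold and of 72 within 1.5-fold. Without CTRL 2 h library 1, the library with collagen counts, the median became 0.03 and 21 members were lower (over all genes 0.01, with 6427 of 13532 lower). Without CTRL 2 h library 2 it was -0.17, and 13 members had an unadjusted p under 0.05 (8.72% of all genes did), none after adjustment (0.305% of all genes). Each of these fits compares a lone CTRL library with 3 ODC libraries and assumes that it varies like the others. Without ODC 2 h library 5 the median was -0.02.

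Of the 16 members with estimates above 0 at 2 h, 10 were of the large and 6 of the small subunit. RPL13 was at 842 and 790 CPM in CTRL libraries 1 and 2 and 931, 892 and 900 in ODC libraries 3, 4 and 5 (log2 fold change 0.15, SE 0.08, unadjusted p = 0.0925, adjusted p = 1.00). All ODC values were above both CTRL values. RPS2 was at 1180 and 1257 CPM in CTRL and 1341, 1399 and 1257 in ODC (0.13, SE 0.09), where the lowest ODC library exceeded the higher CTRL library only in the decimals. RPL3 was at 1121 and 1115 against 1149, 1181 and 1138 (0.05, SE 0.08). These 3 genes were the only members whose groups did not overlap at 2 h, all higher in ODC (7.89% of all genes did so), and none was lower without overlap (7.42% of all genes). RPLP2 and RPLP1 of the stalk were at 0.11 (SE 0.08) and 0.09 (SE 0.09), and RPLP0 at -0.04 (SE 0.08).

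The median was -0.13 over the 31 members of the small subunit and -0.08 over the 46 of the large subunit. RPL24, a protein of the bridge between the subunits, was at 702 and 605 CPM in CTRL and 595, 606 and 462 in ODC (-0.24, SE 0.13, unadjusted p = 0.111). RPS6 was at 1295 and 1027 against 1064, 1070 and 895 (-0.20, SE 0.13). RPS16, whose tail reaches the decoding site, was at 867 and 777 against 742, 781 and 627 (-0.20, SE 0.11). In RPL24 and RPS16 the highest ODC library lay just above the lower CTRL library. RPS13 was at -0.19 (SE 0.12), RPS12 at -0.17 (SE 0.11) and RPL34 at -0.15 (SE 0.10). RPL36A, with the lowest estimate, was at 4.80 and 2.05 CPM against 2.06, 3.76 and 2.66, with an interval from -1.18 to 0.64.

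**Figure D4:**
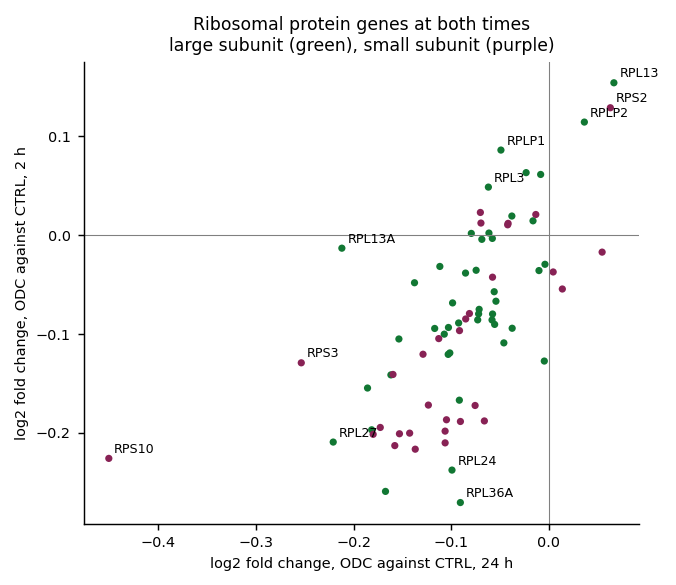
Log2 fold change of ODC against CTRL at 24 h (x) and 2 h (y) for the 77 genes, large subunit in green and small subunit in purple. RPL13, RPS2 and RPLP2 lie above 0 at both times, 58 genes lie below 0 at both, and RPS10 is the farthest to the left at -0.45.

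Gene by gene, the estimates of the times, which share no library, went together with a Spearman's rho of 0.71 over the 77 members. Without CTRL 2 h library 1 rho was 0.34, with 21 members lower at both times, 6 higher at both and 50 lower at 24 h and higher at 2 h. With all libraries, 58 were lower at both times, 3 were higher at both (RPL13, RPS2 and RPLP2), 13 were lower at 24 h and higher at 2 h, and 3 were the reverse. The fold changes also went with how far a gene moved with the family within groups, described above: rho between that slope and the fold change was -0.47 at 24 h and -0.89 at 2 h from slopes of the same time, and -0.65 at 24 h and -0.70 at 2 h from slopes of the other time. The values that use 2 h libraries were not computed again without CTRL 2 h library 1, which stood apart. RPL13, RPS2 and RPLP2, higher at both times, had slopes of 0.54, 0.25 and 0.74 at 24 h and 0.28, 0.06 and 0.47 at 2 h, below the medians of 1.02 and 0.95. The part of these shifts in the rho between the times was not tested. Whether the treatment effect differed with time was tested in a joint fit of the 11 libraries. No member had an adjusted p under 0.05 (0.015% of all genes did) or an unadjusted p under 0.05 (5.93% did). The median difference (24 h minus 2 h) was -0.02, with 49 members below 0 (49.6% of all genes were), and the intervals of 75 members lay within 2-fold and of 64 within 1.5-fold. RPL13A had the smallest p, with a difference of -0.22 (SE 0.16, unadjusted p = 0.194, adjusted p = 0.970). RPLP1 was at -0.15 (SE 0.16) and RPS3 at -0.14 (SE 0.20). Without CTRL 2 h library 1 the median difference was -0.14, with 75 members below 0 (over all genes -0.01, with 7029 of 13561 below 0). RPL13A was then at -0.29, RPLP1 at -0.19 and RPS3 at -0.32.

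Without CTRL 2 h library 1, which leaves a lone CTRL library, the 2 h median over members moved from -0.09 to 0.03. It was 0.05 over the small subunit and 0.03 over the large subunit. RPL13 was then at 0.20 (SE 0.11), RPLP2 at 0.16, RPLP1 at 0.13, RPS2 at 0.08 and RPL3 at 0.05, all still above 0. RPL24 was at -0.13, RPS16 at -0.12, RPS13 and RPL34 at -0.03, RPS6 at -0.02 and RPS12 at 0.0039. Among the other genes given for 2 h, FAU was at -0.03, RPS27L at 0.0055, POLR1A at -0.37, MLST8 at 0.21 and DDIT4 at 0.36. LARP1, the binding protein of TOP mRNAs, was at -0.30 in the same fit. The list medians became -0.01 for the other TOP genes, -0.07 for assembly genes, -0.13 for RNA polymerase I, -0.0063 for mTOR and TOP control, 0.0015 for mitochondrial ribosomal proteins, 0.05 for complex I and -0.02 for the proteasome, against 0.01 for all genes. The share of counts in CTRL was 4.38%, inside the range of the ODC libraries.

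The members' GC content ran from 40.3% to 62.1%. Across members, the fold change went with GC with a Spearman's rho of 0.23 at 24 h and 0.38 at 2 h, as it did across all genes (0.26 and 0.31). Without CTRL 2 h library 1 the value over members at 2 h was 0.12. The 39 members with the lower GC had a median of -0.09 at 24 h and -0.10 at 2 h, and the 38 with the higher GC -0.07 and -0.06. The part of GC in the members' values was not tested.

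When the libraries were scaled so that the family itself was level, an alternative chosen after the data were seen, no member was called at either time. At 2 h RPL13 was then at 0.23, RPS2 at 0.20 and RPLP2 at 0.19, and at 24 h RPS3 was at -0.18, RPS10 at -0.37, RPS2 at 0.15 and RPL13 at 0.15. These values are relative to the other ribosomal protein genes.

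Several genes of ribosomal proteins or their copies lie outside the naming rule. FAU, which encodes a small-subunit protein fused to a ubiquitin-like protein, had log2 fold changes of -0.05 at 24 h and -0.10 at 2 h. RPL22L1, a paralog of RPL22 that can take its place, was at 233, 155 and 171 CPM in CTRL and 146, 127 and 94.8 in ODC at 24 h, with no overlap (8.51% of all genes were lower without overlap). Its log2 fold change was -0.60 (SE 0.20, unadjusted p = 0.0160, adjusted p = 0.270), and RPL22 itself was at -0.02. With the pairs as a block, a pairing inferred from these data, RPL22L1 passed the adjusted threshold, at -0.60 (adjusted p = 0.0304), as 5.41% of all genes did. At 2 h it was at 115 and 66.3 CPM in CTRL and 83.0, 78.0 and 73.0 in ODC (-0.22, SE 0.20), and at 0.23 without CTRL 2 h library 1, where the difference between times was -0.85 (unadjusted p = 0.0195, adjusted p = 0.877).

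RPS27L, a p53-induced copy of RPS27, was at 123, 95.9 and 115 CPM in CTRL and 193, 128 and 119 in ODC at 24 h (0.40, SE 0.19, adjusted p = 0.459). ODC library 2 was the highest, and the groups overlapped. Without that library the estimate was 0.15. At 2 h RPS27L was at 81.6 and 65.2 CPM against 77.1, 62.2 and 57.0 (-0.17, SE 0.15), and the difference between times was 0.54 (SE 0.27, unadjusted p = 0.0721, adjusted p = 0.892), or 0.38 without CTRL 2 h library 1. RPL36AL, RPL26L1, RPL7L1 and RPL39L had estimates from -0.10 to -0.03 at 24 h. RPL3L, a muscle form, had at most 1 count and RPL10L, a testis form, 0 in every library, where 3 counts correspond to 0.0964 to 0.169 CPM.

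Other genes of the pathway were described by lists. Of 24 other genes listed as TOP genes, among them elongation factors and eIF3 subunits, 16 were lower and 8 higher at 24 h. This list was not checked against the listed starts. The median was -0.05, and none had an unadjusted p under 0.05 (12.2% of all genes did). With the pairs as a block 3 did, all lower, namely TPT1, GNB2L1 and EIF3E (23.6% of all genes did). TPT1, a growth-associated protein, was lowest at 2076, 1733 and 1518 CPM in CTRL and 1580, 1498 and 1018 in ODC (-0.38, SE 0.19, adjusted p = 0.464). GNB2L1 (RACK1), a scaffold on the small subunit, was at -0.19 (SE 0.10). At 2 h the list had a median of -0.03.

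The 42 ribosome assembly genes had medians of -0.01 at 24 h and 0.0088 at 2 h. None had an unadjusted p under 0.05 at either time (12.2% of all genes did at 24 h and 2.34% at 2 h). At 24 h with the pairs as a block 3 did, all lower, namely NPM1, FBL and NOP10 (23.6% of all genes did). FBL, the methyltransferase of rRNA, was at -0.18 at 24 h (SE 0.09). Among 14 genes of RNA polymerase I and its factors, which make the rRNA, the median was 0.03 at 24 h and -0.09 at 2 h. TWISTNB, a polymerase I subunit, was at 101, 87.6 and 105 CPM in CTRL and 66.0, 55.5 and 74.8 in ODC at 24 h, with no overlap (8.51% of all genes were lower without overlap). In the fit without the block it was the only gene of that list with an unadjusted p under 0.05 (12.2% of all genes did). Its log2 fold change was -0.58 (SE 0.13, unadjusted p = 0.0023, adjusted p = 0.139). With the block POLR1A and ZNRD1 also had an unadjusted p under 0.05 (23.6% of all genes did). POLR1A, the largest subunit, was at -0.23 (SE 0.13) at 2 h.

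A further list of 22 genes was built around mTOR signalling and the control of TOP mRNAs. It also held genes of neither kind, such as the transcription factor MXD4. At 24 h, 15 estimates lay above 0 and 7 below it, and the median was 0.08. The list mixes parts of the mTOR complexes, such as MLST8, with inhibitors, such as DDIT4. These pooled values therefore give no direction for the pathway. EIF4EBP1, the mTOR substrate that holds back the cap-binding protein, was at 108, 87.8 and 68.8 CPM in CTRL and 55.7, 58.2 and 56.0 in ODC. All ODC libraries were below all CTRL libraries (as for 8.51% of all genes), with a log2 fold change of -0.64 (SE 0.16, unadjusted p = 0.0036, adjusted p = 0.163). AKT1S1, another mTOR substrate, was at 62.1, 59.2 and 59.7 CPM against 74.6, 66.9 and 82.3 (0.31, SE 0.10, unadjusted p = 0.0176, adjusted p = 0.279). EIF4EBP1 and AKT1S1 were the only genes of this list with an unadjusted p under 0.05 at 24 h without the block (12.2% of all genes did). With the block TSC2 and MXD4 were added (23.6% of all genes had such a p in that fit). EIF4EBP1 and TWISTNB passed the adjusted threshold under DESeq2 and with the pairs as a block (5.41% of all genes did with the block), but not in the fit given here. The share of all genes under DESeq2 is not given. At 2 h the median of the list was 0.02. MLST8, a shared subunit of the mTOR complexes, was the only gene of it with an unadjusted p under 0.05, at 42.9 and 45.0 CPM in CTRL and 52.6, 48.9 and 54.4 in ODC (0.24, SE 0.10, unadjusted p = 0.0435, adjusted p = 1.00). Of all genes, 2.34% had such an unadjusted p at 2 h. All ODC values of MLST8 were above both CTRL values, as were those of 7.89% of all genes. DDIT4, an inhibitor of mTOR induced by stress, was at 73.8 and 82.6 CPM in CTRL and 77.3, 136 and 105 in ODC (0.44, SE 0.21, adjusted p = 1.00).

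The mitochondrial ribosomal protein genes, which serve a separate ribosome, had a median of -0.08 over 76 tested at 24 h, with 57 lower. Of them, 6 had an unadjusted p under 0.05, all lower (5.04% of all genes tested had such a p and were lower), and none after adjustment. With the pairs as a block 17 had an unadjusted p under 0.05 (23.6% of all genes did), 16 of them lower. In that fit 3 passed the adjusted threshold (5.41% of all genes did). At 2 h their median was -0.03. Genes of respiratory complex I and of the proteasome, further large complexes, had medians of -0.01 and 0.0062 at 24 h and -0.05 and -0.04 at 2 h.

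**Figure D5:**
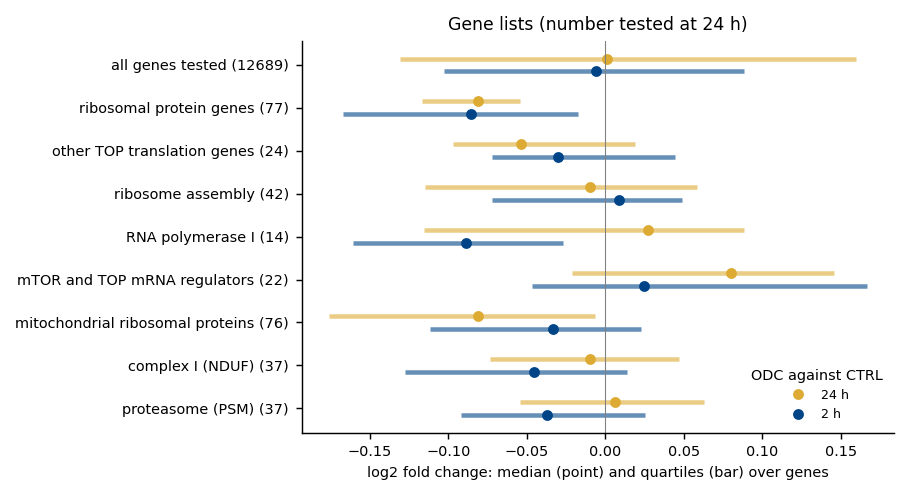
Median (point) and quartiles (bar) of the log2 fold change of ODC against CTRL over the genes of each list, at 24 h (yellow) and 2 h (blue). The cytosolic ribosomal protein genes have medians of -0.08 and -0.09, and all genes tested 0.0009 and -0.0060.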

How the data were processed

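RNA from 11 libraries was sequenced as 100-base single reads after stranded mRNA preparation. The authors aligned the reads to hg38 with STAR, counted them per gene with HTSeq 0.9.1 and deposited raw counts, with no normalization. Submitters' processing notes name STAR 2.7.0f and edgeR 3.26.8, whereas the paper's methods name other versions of both, and which were used is not known. The rule for overlapping genes and the annotation release are not given in the sources used here. Counts were fitted per time with edgeR 4.0.16 (R 4.3.3, earlier quasi-likelihood F test, TMM, filterByExpr with minimum count 10 and total 15), two-sided, with Benjamini-Hochberg adjustment over all genes tested. CPM of genes were scaled with TMM factors, those of markers and of the detection floor with library totals. The scripts were tested on simulated data. DESeq2 1.42.0, other scalings and filters, each library left out and a block were alternatives. Neighbouring library numbers at 24 h were treated as pairs, since over all genes their departures from group means had correlations of 0.20, 0.58 and 0.45, although no label states a pairing. All 77 members matched GENCODE. The lists and members were chosen with earlier results of these data known. Named genes were the 8 members of smallest p per comparison, the 5 highest and 5 lowest by level, members fixed by role, relatives outside the rule and the 3 genes of smallest p per list. RPS27, RPS15A, LARP1 and members named for their place in a range were chosen after their values were seen. A few genes that this rule covers are left out of the text.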

Additional observations from a re-analysis of the deposited data

How the results depend on the processing

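No ribosomal protein gene passed the adjusted threshold under any alternative (21 at 24 h, 19 at 2 h and 24 for the difference), and the smallest adjusted p over them was 0.0943, 0.429 and 0.831. The median log2 fold change was between -0.11 and -0.08 at 24 h and between -0.09 and -0.07 at 2 h under other filters, scalings and tests, and with single libraries left out between -0.19 and 0.02 at 24 h and between -0.17 and 0.03 at 2 h. The counts of members with an unadjusted p under 0.05 are given in the report. With neighbouring library numbers as a replicate block, the 24 h median was -0.08 and RPS3 was at -0.26. RPL22L1, EIF4EBP1 and TWISTNB passed the adjusted threshold there, as did 3 mitochondrial ribosomal protein genes and 1 gene of complex I (5.41% of all genes did). The block changed no call of a ribosomal protein gene. At 2 h no paired analysis was possible because the groups are unequal in size and no label pairs them.

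Scaling by the ribosomal protein genes alone raises every gene by about the family's own shift, so that a gene below 0 by less than that shift turns sign by construction. Among the genes recomputed singly the sign turned at 24 h for RPLP0 (0.0077), RPLP1 (0.029), RPL11 (0.056), RPL22 (0.068), RPS27A (0.0092) and FAU (0.036), and at 2 h for RPLP0 (0.040). RPSA, at 0.0045 in the report, was at -0.00016, -0.0021 and -0.0011 under the other filters (any gene with a count, over 1 CPM in 3 libraries, and 10 counts or more throughout), at -0.0086 with upper quartile scaling, at -0.028 with library totals only and at -0.012 in the joint fit, and RPS19 was at -0.019 and -0.0034 in the last 2 of these. With a library left out, the sign turned at 24 h for RPLP0 (-0.15 to 0.015), RPLP1 (-0.13 to 0.057), RPLP2 (-0.061 to 0.11), RPL11 (-0.099 to 0.054), RPL22 (-0.064 to 0.036), RPS6 (-0.31 to 0.0054), RPS19 (-0.098 to 0.12), RPS26 (-0.27 to 0.015), RPS27 (-0.090 to 0.17), RPS27A (-0.23 to 0.067), RPSA (-0.063 to 0.057) and FAU (-0.15 to 0.034). At 2 h it turned for RPL36A (-0.75 to 0.46), RPS12 (-0.31 to 0.0039), RPLP0 (-0.058 to 0.0037), RPL22L1 (-0.54 to 0.23) and RPS27L (-0.30 to 0.0055), and for the difference in RPS3 (-0.32 to 0.0058). The cause of the changes under settings other than that scaling was not tested. Groups of 2 or 3 libraries limit the precision of every interval, and RPS10, RPL36A and RPL17 also rest on few counts.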
